A study of Mus musculus with 147 samples.

Results

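*Akr1b7* encodes an aldo-keto reductase and marks cells of the renin lineage in the kidney, also when they make no renin. The cells described here are labelled Renin-null: they were sorted by a fluorescent reporter of the renin promoter from kidneys of mice that lack the renin gene, and they were divided by the level of *Akr1b7* mRNA. Not all wells looked like renin cells: in 8 of the 57 used, all with little *Akr1b7*, smooth muscle transcripts were few and transcripts of other kinds led, and single wells with much *Akr1b7* also held more tubule or endothelial than smooth muscle transcripts. Each well of the microfluidic plate was deposited as 1 sorted cell, and the series holds 147 such wells, 96 of them Renin-null. A Renin-null well was used when it had at least 100000 counts, at least 1000 genes with a count and at most 25% of its counts in mitochondrial genes, which left 57 wells. A well with *Akr1b7* at or above 100 CPM (counts scaled to a total of 1000000 per well, without the mitochondrial genes) was called *Akr1b7*-rich and any other well *Akr1b7*-poor, which gave 42 rich and 15 poor wells. The wells were thus selected on a measured value, the level of *Akr1b7*, which is left out of the gene results.

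The Renin-null cells came from adult C57BL/6 *Ren1c*-/- mice. These had a transgene, *Ren1c*-YFP, that places a yellow fluorescent reporter under control DNA from upstream of *Ren1c*. The WT cells came from *Ren1c*+/+ mice with the same transgene, so that both genotypes carry the reporter. The renin-deficient animals depended on saline injections as newborns. In both, the kidney cortex was digested, YFP-positive cells were sorted and captured on a Fluidigm C1 system, and their mRNA was amplified with a SMART-Seq v4 kit that does not mark molecules. The labels name no mouse for a cell, so cells of 1 animal cannot be told from cells of another and the 57 wells stand for 1 sample. The wells carry the names of 2 libraries, YFP1 with 28 of the wells used and YFP2 with 29.

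Renin cells line the afferent arteriole next to the glomerulus and release renin, the enzyme that starts the renin-angiotensin cascade. They share a lineage with arteriolar smooth muscle and with pericytes, can carry contractile proteins as well as hormone granules, and keep renin transcription on through cyclic AMP, protein kinase A and the transcription factors that bind cyclic AMP response elements. Aldo-keto reductases of the Akr1b group reduce sugars and lipid aldehydes.

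The targeted gene was checked first. *Ren1* (chr1:133350510-133360325, GRCm38) had a count in 8 of the 42 rich and 5 of the 15 poor Renin-null wells, and its highest value was 10.4 CPM in a rich well and 3.25 CPM in a poor one. In the 15 WT wells that met the same limits, the lowest value of *Ren1* was 740 CPM. The genotype labels and the *Ren1* level thus did not conflict in any well used. The reporter was much less even. *EYFP*, which has no place in the mouse genome, ranged in the rich wells from 0 to 5340 CPM with a median of 12.4 CPM, and in the poor wells from 0 to 36400 CPM with a median of 0.793 CPM. It stood at or above 100 CPM in 17 of 42 rich and 2 of 15 poor wells, although all the cells had been sorted on YFP.

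*Akr1b7* lies on chromosome 6 (chr6:34412334-34423142, plus strand, GRCm38) beside its relatives *Akr1b3*, *Akr1b8* and *Akr1b10*. The stretch just before its start and that of *Myl9*, a smooth muscle gene described further on, are shown because the first belongs to the gene that divides the wells and the second holds the site that serum response factor reads in many smooth muscle promoters. Both come from RefSeq on GRCm38.p6, run from 5′ to 3′ on the plus strand, and end before the first annotated base of the gene. They span chr6:34412112-34412333 and chr2:156775214-156775419. Capitals mark the CArG box.
Akr1b7: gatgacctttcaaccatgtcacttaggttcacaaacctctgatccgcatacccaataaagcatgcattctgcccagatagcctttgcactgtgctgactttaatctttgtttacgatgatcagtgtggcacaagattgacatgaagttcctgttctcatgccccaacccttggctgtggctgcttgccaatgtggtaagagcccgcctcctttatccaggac
Myl9: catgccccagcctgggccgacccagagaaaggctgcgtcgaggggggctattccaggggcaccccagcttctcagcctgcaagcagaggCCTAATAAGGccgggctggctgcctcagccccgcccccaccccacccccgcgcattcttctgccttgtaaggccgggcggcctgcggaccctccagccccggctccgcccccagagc
A pair of motifs was searched on both strands in the 250 bases before each RefSeq start, namely the strict CArG box and the full cyclic AMP response element TGACGTCA, which cannot overlap each other. A CArG box was in 1.47% and TGACGTCA in 1.55% of all 32851 such windows. Of the 17 smooth muscle genes measured here, 14 had a window, and 2 of these, *Myl6* and *Myl9*, held a CArG box. Neither motif was in the window of *Akr1b7*.

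*Akr1b7* itself was the measure that chose the wells, so its levels are a description. In the rich wells it ran from 212 to 10487 CPM with a median of 2572 CPM, and in the poor wells from 0 to 68.1 CPM with a median of 2.59 CPM. Of the poor wells, 14 were under 10 CPM, the next was at 68.1 CPM, and the lowest rich wells were at 212, 218 and 226 CPM. Few wells therefore lay near the limit. The poor wells made up 26.3% of the 57 (exact Clopper-Pearson 95% interval 15.5% to 39.7%), with 10 of 28 in YFP1, or 35.7% (18.6% to 55.9%), and 5 of 29 in YFP2, or 17.2% (5.85% to 35.8%). These intervals cover counting error only, and those of the libraries overlap.

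**Figure D1:**
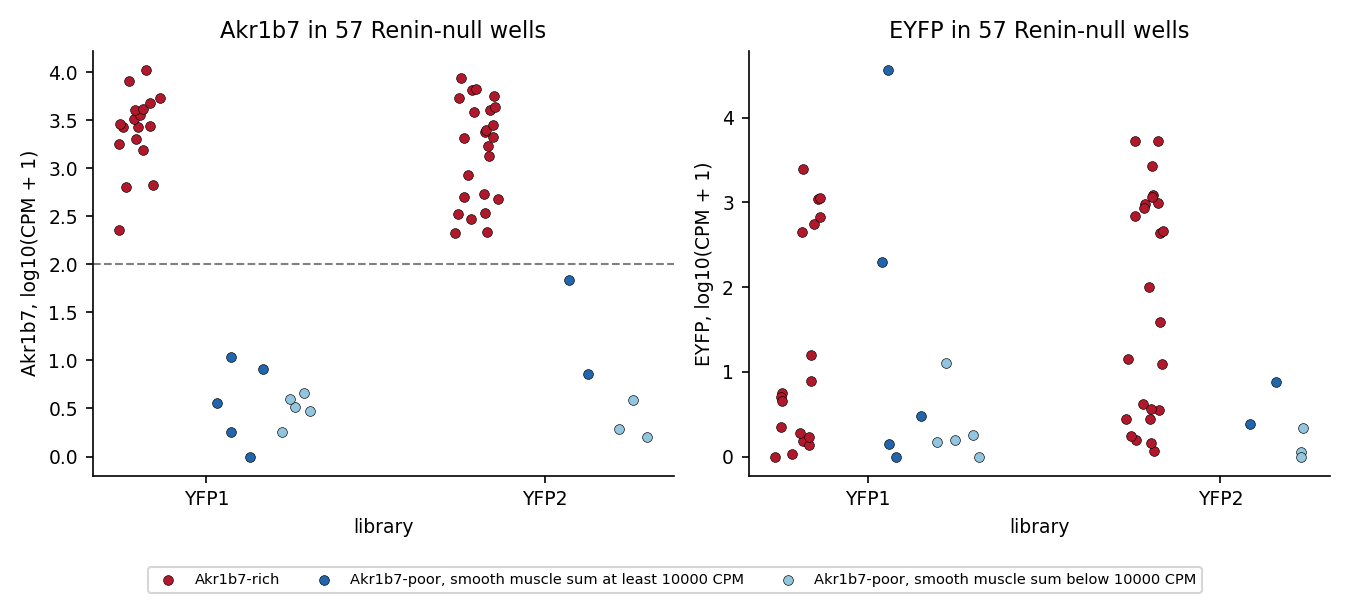
*Akr1b7* (left) and *EYFP* (right) in each of the 57 Renin-null wells, as log10(CPM + 1), by library; red points are the 42 *Akr1b7*-rich wells, blue points the 15 poor wells, darker where smooth muscle genes sum to at least 10000 CPM, and the dashed line is the limit of 100 CPM. *Akr1b7* leaves a gap between 68.1 and 212 CPM, whereas *EYFP* spreads over the whole range in the rich wells and reaches its highest value, 36400 CPM, in a poor well.

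Depth was similar in both classes. Total counts had a median of 6758064 (151022 to 14505243) in the rich and 6486270 (292105 to 10363577) in the poor wells. Genes with a count had medians of 6368.5 and 7119, and the share of counts in mitochondrial genes had medians of 4.51% and 4.88%. Among the rich wells, 3 pairs of a YFP1 and a YFP2 well were nearly identical across genes, with correlations of 0.981 to 0.986 between their log values, whereas the pair ranked next stood at 0.944 and had a well outside the limits. The 2 libraries used the same 48 index pairs, and 0 of the 3 near-identical pairs shared one. Over the 17 pairs of used wells that did share one, the correlation had a median of 0.27 and a highest value of 0.44. Whether a near-identical pair is 1 cell under 2 labels was not tested, and counting each near-identical pair once leaves 39 rich wells.

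For every gene the mean of log2(CPM + 1) over the rich wells was set against that over the poor wells, and 4142 genes entered with at least 10 CPM in at least 10 of the 57 wells. Because 1 sample has no replicate, no test was made. A gene was counted as higher or lower when the means differed by at least 2 log2 units with the same sign within YFP1 and within YFP2. By this rule 209 genes, or 5.05%, were higher in the rich wells and 155, or 3.74%, were lower. The difference was above 0 for 47.1% of all genes, and its median was -0.08. The higher genes thus made up 57.4% of those counted, a split that became 43.4% with median-ratio size factors, 77.3% with counts summed over wells and 73.8% when these sums were scaled by TMM. It was 86.2% over all 96 Renin-null wells and 37.7% within YFP1 alone. Without the filter on low values 209 genes were higher and 194 lower. A gene high only in the poor wells needs 10 of these 15 to enter, against 10 of 42 for the rich wells. The filter thus leans towards genes high in the rich class. Single wells vary widely, and the median SD of a gene over wells was 3.04 log2 units in both classes. The rule asks only for the same sign in each library, and of the 58 counted genes that the rule for named genes picks, 18 differed by less than 2 log2 units in 1 of the libraries. With the near-identical pairs counted once, 3 of the 58 were no longer past 2 log2 units, *Akr1a1* (-1.98), *Tln1* (1.82) and *Hspb1* (1.999).

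The 10 largest positive differences ran from 4.64 to 6.12 log2 units and were seen in both libraries. *Sncg*, which encodes gamma-synuclein, ran from 0.263 to 3042 CPM with a median of 782 CPM in the rich wells and from 0 to 2699 CPM with a median of 1.24 CPM in the poor wells. Its mean log2 value was 8.90 ± 2.61 (SD, n = 42) against 2.78 ± 3.31 (SD, n = 15), a difference of 6.12, which was 6.04 in YFP1 and 6.07 in YFP2. It passed 100 CPM in 35 of 42 rich and 2 of 15 poor wells, and the ranges of the classes overlapped.

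*Sparcl1*, a secreted glycoprotein of vessel walls, had medians of 1297 and 4.38 CPM (difference 5.42), and 39 rich but also 4 poor wells passed 100 CPM. *Ecm1*, an extracellular matrix protein, had medians of 653 and 1.15 CPM (5.22). *Atp1b2*, a beta subunit of the sodium-potassium pump, had medians of 278 and 0.802 CPM (5.09). All of these were close to absent in most poor wells.

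*Cald1*, caldesmon of the thin filament, was present in every well, with medians of 3079 and 58.6 CPM (5.00). *Rgs5*, a brake on G protein signalling that marks pericytes and renin cells, reached 45358 CPM in a rich and 45002 CPM in a poor well, while its medians were 18605 and 257 CPM (4.86). The top of the range was thus shared by both classes, and 42 of 42 rich but 8 of 15 poor wells passed 100 CPM. *Limch1*, which binds actomyosin, had medians of 120 and 0.224 CPM (4.79).

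*Tinagl1*, a matrix protein of basement membranes, had medians of 244 and 1.19 CPM (4.72), and *Lamb2*, a laminin chain of vascular basement membranes, 149 and 1.34 CPM (4.66). *Mef2c*, a transcription factor of muscle, had medians of 332 and 2.68 CPM (4.64). *Lamb2* and *Limch1* each passed 100 CPM in 1 poor well, against 22 and 21 rich wells.

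**Figure D2:**
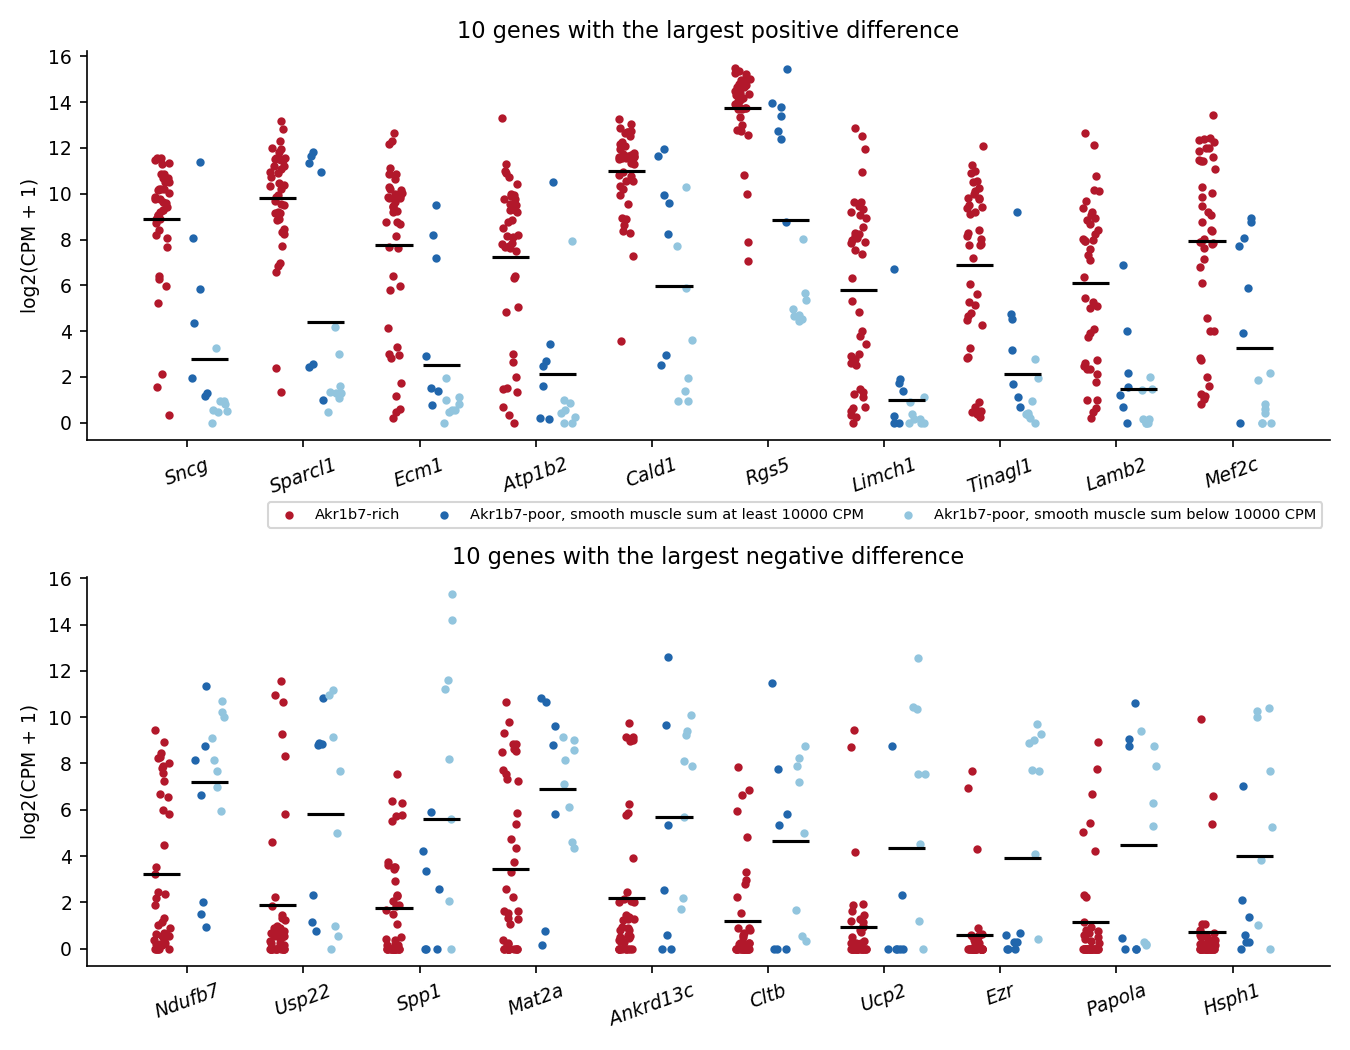
log2(CPM + 1) in each Renin-null well for the 10 genes with the largest positive (top) and negative (bottom) difference; red points are 42 *Akr1b7*-rich wells, dark and light blue points the 15 poor wells with smooth muscle genes at or above and below 10000 CPM, and black bars the class means. *Rgs5*, *Cald1* and *Sparcl1* are high in many of the dark blue wells, whereas *Sncg*, *Atp1b2*, *Limch1* and *Lamb2* are low in most wells of both blue groups.

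The 10 largest negative differences ran from -3.97 to -3.30 log2 units, smaller in size than the positive ones. The filter on low values asks more of genes high only in poor wells, so these sizes are not on an equal footing. *Ndufb7*, a subunit of respiratory complex I, had medians of 2.10 CPM in the rich and 282 CPM in the poor wells (difference -3.97). *Usp22*, a deubiquitinase of a chromatin complex, had medians of 0.472 and 201 CPM (-3.92), with -2.02 in YFP1 and -6.44 in YFP2. *Spp1*, osteopontin, reached 185 CPM in the rich but 40605 CPM in the poor wells, with 5 of 15 poor wells past 100 CPM (-3.85).

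*Mat2a*, which makes S-adenosylmethionine, had medians of 2.09 and 284 CPM (-3.47). *Ankrd13c*, *Cltb* (a clathrin light chain), *Ucp2* (a mitochondrial uncoupling protein), *Ezr* (ezrin of microvilli), *Papola* (a poly(A) polymerase) and *Hsph1* (a heat shock protein) differed by -3.46 to -3.30. With counts summed over wells *Mat2a* differed by -1.23 and *Usp22* by -1.90, both under 2 log2 units in size. The others of these 10 genes then ran from -2.26 (*Ndufb7*) to -9.04 (*Spp1*). *Ucp2* and *Papola* rested mostly on YFP1, at -4.85 and -4.48, against -1.38 and -1.43 in YFP2. *Ezr* passed 100 CPM in 2 of 42 rich and 6 of 15 poor wells, all 6 of them wells with few smooth muscle transcripts.

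The genes whose level followed that of *Akr1b7* most closely over the 57 wells were *Mgp* (Spearman 0.68), a matrix protein that keeps vessel walls free of mineral, *Col12a1* (0.63), a collagen that sits on other collagens, *Atp1b2* (0.58), *Fxyd1* (0.54), a partner of the sodium-potassium pump, and *Cald1* (0.54). These are descriptions over wells of 1 sample, and both the limit on *Akr1b7* and the make-up of the wells enter them. *Mgp* had medians of 3313 and 85.4 CPM in the rich and poor wells and was the most abundant matrix gene in the rich well where that list was highest, at 38734 CPM.

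The Akr1b relatives of *Akr1b7* were not counted in either direction. *Akr1b3* (chr6:34302434-34317478), the aldose reductase, had medians of 0.666 and 1.20 CPM and a difference of -0.33, with 1.16 in YFP1 and -2.64 in YFP2. *Akr1b8* and *Akr1b10* had medians of 0 in both classes and did not enter. Their transcripts are alike, and how the quantification shared reads among them could change single values. *Akr1a1*, the aldehyde reductase found in most tissues, was lower in the rich wells, at 73.3 against 367 CPM (-2.17), but differed by 0.40 over the wells with smooth muscle transcripts, a smaller set described below. It reached 15041 CPM in a poor well rich in proximal tubule transcripts. Of the 10 aldo-keto reductases listed, 2 entered, 0 were higher and 1 was lower.

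The poor wells were not of one kind. The smooth muscle contractile list (18 genes such as *Acta2*, *Tagln* and *Myh11*) summed to 14840 to 77546 CPM in 7 of them and to 524 to 4472 CPM in the other 8, with nothing between. In the rich wells it summed to 5009 to 91020 CPM with a median of 29926 CPM, and 39 of 42 were above 10000 CPM. Of the 7 poor wells with these transcripts, 5 were in YFP1 and 2 in YFP2. One of these held the highest *EYFP* of the series' Renin-null wells used, 36400 CPM, with 0 counts of *Ren1* and *Akr1b7* at 2.59 CPM.

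The 8 other poor wells each led with transcripts of another kind, named here after their values were seen. In 2 of them the proximal tubule list summed to 49763 and 75703 CPM, led by *Gpx3*, a secreted glutathione peroxidase, at 21606 and 25089 CPM. The well with the highest podocyte list, 25070 CPM, held all 10 of its members, among them *Nphs1* (nephrin of the slit diaphragm) at 4437 CPM.

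One well summed to 42605 CPM over the macrophage and leukocyte list, led by *H2-Aa*, a class II antigen presentation gene, at 28840 CPM and with *Cd74* at 6808 CPM, while *Csf1r*, *Adgre1* and *Cd3e* were at 0. Another held *Slc12a1*, the sodium transporter of the thick ascending limb, at 3475 CPM beside *Klk1* at 15340 CPM. A pair of wells led with *Spp1*, at 18920 and 40605 CPM, with the keratins *Krt7* at 2450 and 4726 CPM and *Krt15* at 3418 and 6780 CPM. The last held genes of dividing cells, with *Top2a* at 2861 and *Smc2* at 5187 CPM and a cell cycle list sum of 11546 CPM. The well led by *H2-Aa* held such genes too, with *Top2a* at 1338 CPM and a list sum of 6197 CPM. The list sum alone does not show this. In the well with the highest podocyte list it was 7879 CPM, but *Cdkn1c* held 7842 CPM of it and *Top2a* was at 3.54 CPM. *EYFP* was at most 11.7 CPM in any of these 8 wells.

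**Figure D3:**
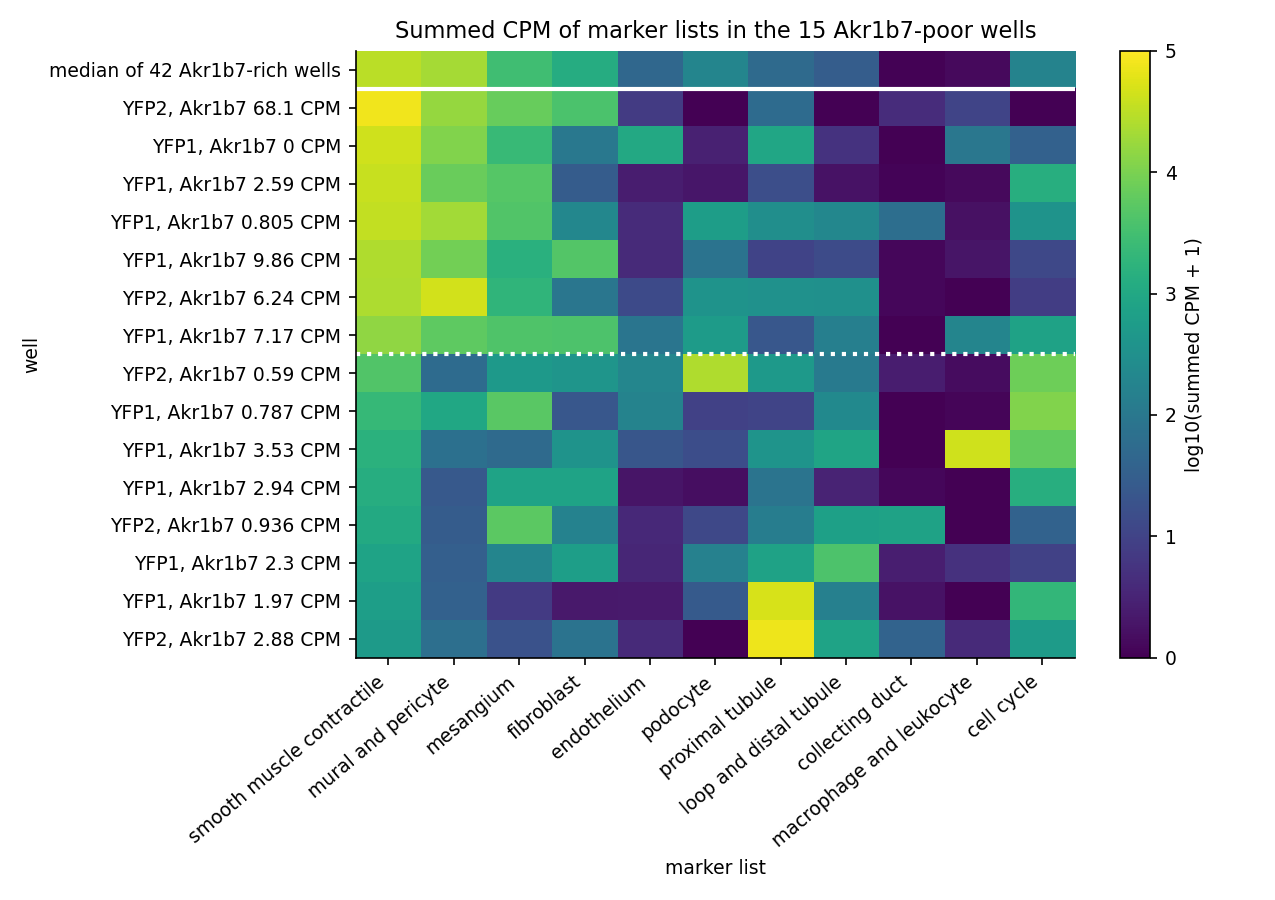
Summed CPM of 11 gene lists, as log10(CPM + 1), in the 15 *Akr1b7*-poor wells (rows, ordered by the smooth muscle sum) and, in the top row, the median of the 42 rich wells; the dotted line separates the 7 poor wells above 10000 CPM of smooth muscle transcripts from the 8 below. Above the line the tubule, podocyte, endothelium and leukocyte sums differ from well to well but reach at most 1020 CPM, and below it single bright cells mark the podocyte, leukocyte and proximal tubule lists, which reach 25070, 42605 and 75703 CPM.

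Most rich wells held little of these other transcripts. Their median sums were 53 CPM for the proximal tubule, 28.8 CPM for the loop and distal tubule, 184 CPM for the podocyte and 44.8 CPM for the endothelium list, and their highest leukocyte sum was 80.1 CPM. In the poor wells the same medians were 298, 151, 14.1 and 3.06 CPM, so the podocyte and endothelium medians were higher in the rich wells. The 3 rich wells under 10000 CPM of smooth muscle transcripts differed from each other. One held 28917 CPM of proximal tubule transcripts at 2487 CPM of *Akr1b7*, one held 11408 CPM of endothelial transcripts led by *Emcn*, a sialoglycoprotein of capillaries, at 338 CPM of *Akr1b7*, and one held neither. Other rich wells also carried such transcripts beside those of smooth muscle. Of the 42 rich wells, 7 passed 1000 CPM of the proximal tubule list, 4 of the podocyte list and 5 of the endothelium list. Among these 7 were both wells of near-identical pairs, at 5094 and 4577 CPM and at 4467 and 4701 CPM, so fewer separate cells may be behind them. One summed to 18025 CPM over the proximal tubule and 2968 CPM over the collecting duct list at 3881 CPM of *Akr1b7*. Another, at 218 CPM of *Akr1b7*, held all 10 podocyte genes with a sum of 4799 CPM. Whether a well held more than 1 cell was not tested.

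Because 8 of 15 poor wells had few smooth muscle transcripts, the comparison was repeated over the 39 rich and 7 poor wells above 10000 CPM of them, a choice made after seeing the data. These are called the wells with smooth muscle transcripts. By the same rule 371 genes, or 8.96%, were higher and 97, or 2.34%, were lower, and the median over all 4142 genes moved from -0.08 to 0.39. Of the 209 higher genes 93 were higher again, which is 44.5% of these and 25.1% of the 371. Of the 155 lower genes 29 were lower again, which is 18.7% of these and 29.9% of the 97. The limit itself used the contractile genes, and the YFP2 side rests on 2 poor wells.

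Several of the largest differences held among the wells with smooth muscle transcripts. *Sncg* ran from 1.24 to 2699 CPM with a median of 19.5 CPM in the 7 poor wells and had a median of 793 CPM in the 39 rich wells, a difference of 4.11. *Atp1b2* had medians of 284 and 4.62 CPM (4.38), *Limch1* 185 and 1.59 CPM (4.18), and *Lamb2* 194 and 1.99 CPM (4.08). *Gsn*, gelsolin, which severs actin filaments, had medians of 266 and 13.1 CPM (4.36), and no poor well of the 7 passed 25.4 CPM. Of the 10 genes named for positive differences, 10 were above 0 and 8 were again counted as higher.

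*Rgs5* did not keep its difference, with medians of 18771 and 10902 CPM (0.91), and neither did *Sparcl1* by its medians of 1424 and 1974 CPM, although its difference of means was 2.70. Of the 10 genes named for negative differences, 1 was above 0 and 5 were again counted as lower. Among the lower genes, *Usp22* stood at a median of 0.447 CPM in the rich and 446 CPM in the poor wells (-4.23) and *Mat2a* at 2.06 and 441 CPM (-3.37). *Spp1* was at most 185 CPM in the rich and 58.3 CPM in the poor wells (-0.56), and *Ezr* at most 0.618 CPM in the 7 poor wells (0.34). The high values of these last genes thus lay in the poor wells with few smooth muscle transcripts.

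Lists of genes were described in the same way, by the number of members that entered, the number counted, and the median difference, to be read beside the median of -0.08, 5.05% higher and 3.74% lower over all genes. The lists had been drawn up with earlier results of these data known. Some genes stand in several lists, such as *Rgs5*, *Gucy1a1*, *Acta2*, *Tagln*, *Notch3*, *Cpe* and *Col1a1*, so the results of the lists are not independent. Of 17 smooth muscle contractile genes that entered, 17 were above 0 and 12 were higher, with a median of 2.54. *Acta2*, smooth muscle actin, had medians of 4648 and 11.7 CPM (4.57), and *Tagln*, transgelin, 6353 and 34.5 CPM (4.28). *Mylk*, the kinase that starts contraction, had medians of 891 and 35.0 CPM (3.95, with 4.94 in YFP1 and 2.27 in YFP2), and *Myl9*, the light chain it phosphorylates, 1891 and 54.2 CPM (3.49). With counts summed over wells *Acta2* differed by 1.22 and *Tagln* by 1.33, both under 2 log2 units, whereas *Cald1* stood at 2.77 and *Mylk* at 2.27.

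Over the wells with smooth muscle transcripts the same list had a median of 0.24, below the 0.39 of all genes, with 10 of 17 above 0. *Acta2* then differed by 0.33, *Tagln* by -0.27, *Myh11* by -1.16 and *Myl9* by -1.35, whereas *Cald1* (2.99) and *Mylk* (2.77) remained apart. *Tagln* stood at medians of 6384 CPM in these rich and 8832 CPM in these poor wells. The limit on wells used these genes, so their small differences here are in part set by it.

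The mural and pericyte list behaved in part likewise. All 11 members that entered were above 0, 7 were higher, and the median was 2.26, against 0.91 over the wells with smooth muscle transcripts. *Notch3*, the Notch receptor of mural cells, had medians of 96.7 and 0.393 CPM (3.71, with 1.82 in YFP1 and 5.52 in YFP2), and *Gucy1a1*, a subunit of the nitric oxide receptor, 80.1 and 2.26 CPM (3.52). Both stayed apart over the smaller set of wells, by 2.72 and 2.89. *Cspg4*, the proteoglycan NG2 of pericytes, differed by 2.61 and then 1.87, and *Heyl*, a Notch target, by 1.49 and then 0.18, but by -1.94 with counts summed over wells.

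Of 22 matrix and secreted genes that entered, 20 were above 0, 16 were higher and 1, *Spp1*, was lower, with a median of 2.60. *Bgn*, biglycan, had medians of 1136 and 8.63 CPM (4.40) and *Col1a1*, a chain of type I collagen, 120 and 1.73 CPM (4.35). Over the wells with smooth muscle transcripts the median was 1.42, with 19 of 22 above 0 and 5 higher, and *Col1a1* differed by 2.51, *Mgp* by 1.76 and *Bgn* by 1.89. *Timp3*, an inhibitor of matrix proteases, was the other member below 0. Of the fibroblast list 4 genes entered, namely *Col1a1*, *Col1a2*, *Col3a1* and *Gsn*, and 4 were higher (median 3.54), while *Pdgfra*, *Dcn* and *Lum* did not enter. *Dcn*, decorin, went the other way, since it reached 8.73 CPM at most in the rich wells and 3066 CPM in the poor ones, 3 of which passed 100 CPM (-2.08). Over the smaller set the fibroblast median was 2.05, with 2 higher, and *Dcn* differed by -2.17. Of 8 mesangium genes 8 were above 0 and 2 were higher, with a median of 1.12, led by *Serpine2* (3.10) and *Igfbp5* (2.75, with 3.55 in YFP1 and 1.75 in YFP2), which stood at 0.14 and -0.01 over the smaller set.

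**Figure D4:**
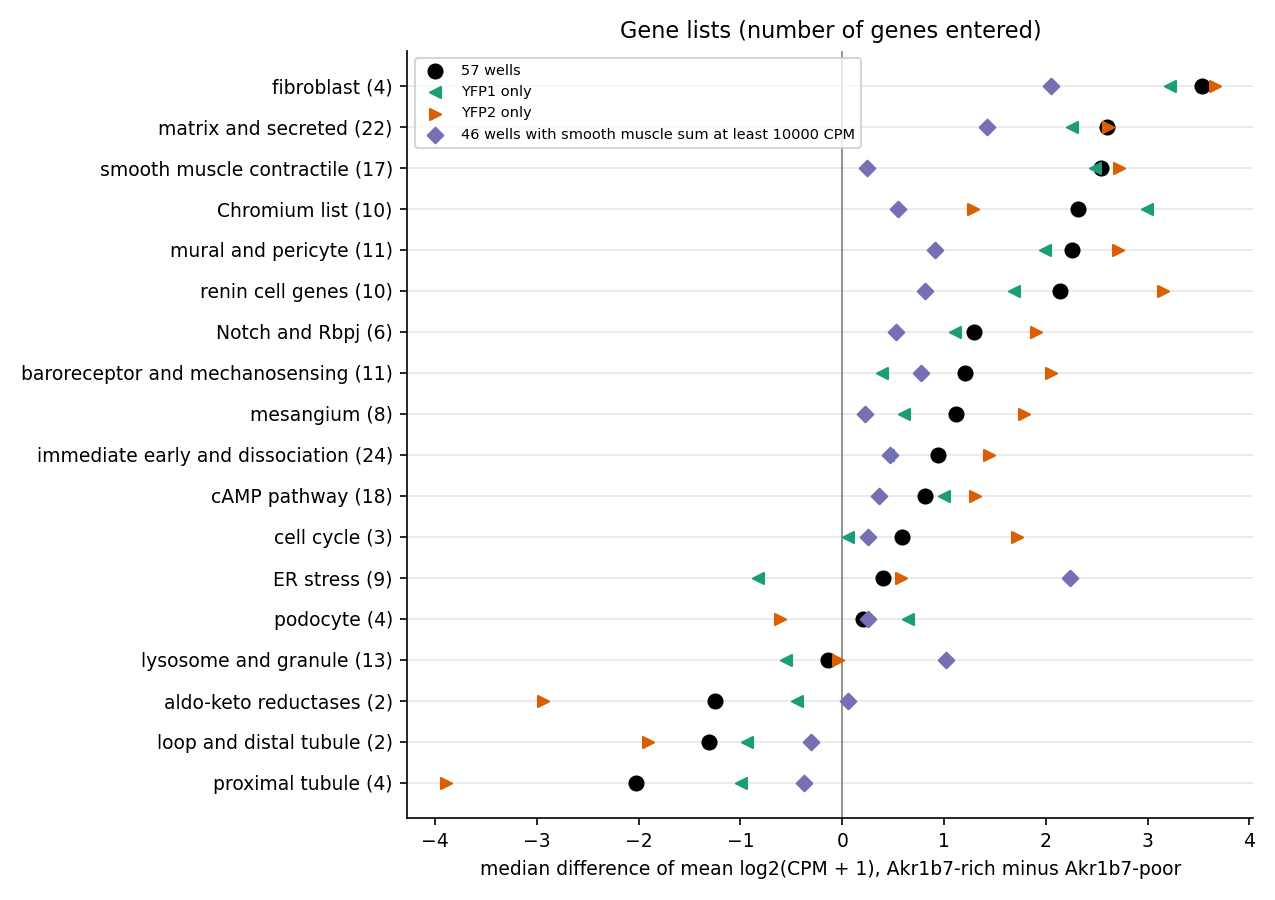
Median difference of mean log2(CPM + 1), *Akr1b7*-rich minus *Akr1b7*-poor, for each list with at least 2 genes entered (number in brackets); black circles are all 57 wells, triangles YFP1 and YFP2 alone, and diamonds the 46 wells with at least 10000 CPM of smooth muscle transcripts. The smooth muscle list moves from 2.54 to 0.24 between circle and diamond, and the ER stress list from 0.40 to 2.23.

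Genes of the renin cell itself were assessed next. Of the 18 listed 10 entered, 10 were above 0 and 5 were higher, with a median of 2.14. Beside *EYFP*, *Rgs5* and *Gucy1a1* these included *Crip1*, a small LIM protein, with medians of 2389 and 536 CPM (2.97), and *Cpe*, a processing enzyme of hormone granules (2.66). Over the wells with smooth muscle transcripts the list median was 0.81, with 8 of 10 above 0 and 2 higher, and *Crip1* differed by -0.37 and *Cpe* by 0.71. *EYFP* differed by 2.84, with 1.21 in YFP1 and 4.89 in YFP2, or by 3.75 without the poor well at 36400 CPM, and by 1.10 over the wells with smooth muscle transcripts. With counts summed over wells, where that 1 well weighs most, *EYFP* was lower in the rich class, by -2.55.

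Of the 18 genes of the cyclic AMP pathway that entered, 14 were above 0, 4 were higher and 0 were lower, with a median of 0.82. The higher ones were *Calcrl*, the receptor for calcitonin gene-related peptide and adrenomedullin, with medians of 96.6 and 0.472 CPM (3.61), the phosphodiesterases *Pde3a* at 143 and 4.48 CPM (3.10) and *Pde1a* at 8.94 and 2.05 CPM (2.32), and *Prkar1a*, the regulatory subunit of protein kinase A, at 309 and 14.9 CPM (2.19, with 1.12 in YFP1 and 3.69 in YFP2). *Gnas*, the stimulatory G protein, differed by 2.16 with 3.66 in YFP1 but -0.60 in YFP2. *Creb1* and *Crebbp*, the factor and the coactivator at the end of the pathway, differed by 0.48 and 0.00. Over the wells with smooth muscle transcripts the list median was 0.36, below the 0.39 of all genes, with 4 higher and 1 lower. *Gnas* differed there by 3.48, *Calcrl* by 3.26, *Pde1a* by 2.70, *Prkar1a* by 2.60 and *Crem* by 2.16. A difference past 2 is counted only with the same sign in both libraries. *Pde3a* stood at 1.42 and *Adcy5*, an adenylyl cyclase, at -3.09.

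Of 11 genes of the baroreceptor and of mechanosensing, 10 were above 0 and 3 were higher, with a median of 1.20. These were the actin crosslinker *Flna* at medians of 914 and 111 CPM (3.44), the integrin *Itgb1* at 444 and 57.8 CPM (2.36) and talin, *Tln1*, at 77 and 4.32 CPM (2.02). The libraries differed here, with *Itgb1* at 1.27 in YFP1 and 4.63 in YFP2 and *Tln1* at 2.75 and 1.05, and the list median was 0.39 in YFP1 and 2.05 in YFP2. Over the smaller set the median was 0.77, with 3 higher, and *Itgb1* differed by 3.20, *Tln1* by 2.06 and *Flna* by 0.66. Of 6 Notch genes, *Notch3* and the ligand *Jag1* (medians of 1831 and 539 CPM, 2.38) were higher and *Rbpj*, the factor that Notch acts through, was lower at 0.0627 and 1.95 CPM (-2.21), a gene near its floor in most wells. Over the smaller set *Rbpj* stood at -0.62 and *Jag1* at 1.06.

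Of 24 immediate early and dissociation genes, 20 were above 0 and 5 were higher, with a median of 0.94, led by *Egr1* at medians of 1990 and 62.9 CPM (3.58). *Klf2* (2.34), *Socs3* (2.30) and *Hspb1* (2.25), which respond to flow, cytokines and heat, were also higher, while *Fos* differed by 0.80. With counts summed over wells *Egr1* differed by 1.82, *Hspb1* by 1.58, *Klf2* by 0.87 and *Socs3* by 0.10, all under 2 log2 units. *Klf2* and *Socs3* rested mostly on YFP2, at 4.33 and 3.82, against 1.00 and 1.13 in YFP1. In the smaller set of wells the median was 0.47, near the 0.39 of all genes, with 2 higher. *Egr1* then differed by 2.15, *Klf2* by 0.16, *Socs3* by 0.72, *Hspb1* by 1.01 and *Fos* by -1.79. These genes respond to tissue digestion, and their part in the other differences was not tested. Of 13 lysosome and granule genes, 0 were higher and 1, *Lamp2* of the lysosomal membrane, was lower at 3.74 and 284 CPM (-3.12), with a median of -0.14. In the smaller set of wells this median turned to 1.02, with 10 of 13 above 0, 3 higher and 1 lower, and *Lamp2* stood at -2.58.

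Of 9 genes of ER stress, 7 were above 0, 0 were higher and 1, *Herpud1*, was lower (-2.05, and 0.10 over the smaller set), with a median of 0.40. The libraries went opposite ways, since the median was -0.83 within YFP1 but 0.58 within YFP2. Over the wells with smooth muscle transcripts the median was 2.23, and 9 were above 0 and 5 were higher, beside 8.96% of all genes, although YFP2 has only 2 poor wells in this set. The chaperone *Hsp90b1* differed there by 3.94, *Hspa5* by 2.69, *Pdia3* by 2.65 and *Calr* by 2.49. *Hspa5*, the main chaperone of the ER lumen, had medians of 398 CPM in these 39 rich and 13.0 CPM in these 7 poor wells. In the 57 wells it had medians of 607 and 265 CPM (1.47), so the poor wells with few smooth muscle transcripts carried more of it. Of 3 cell cycle genes that entered none was counted in either direction, and *Tyms* differed by -4.38 in YFP1 and 1.71 in YFP2.

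Lists of tubule, podocyte and endothelial genes entered with few members, because most of these genes were present in too few wells. Of 4 proximal tubule genes 2 were lower, among them *Gpx3* (-2.32), with a list median of -2.02 that was -0.38 over the smaller set. *Gpx3* stood at -1.26 in YFP1 and -4.38 in YFP2. Both of 2 loop and distal tubule genes were below 0 (median -1.31), and of 4 podocyte genes 1, *Synpo*, was higher (2.93, with 4.15 in YFP1 and 0.62 in YFP2, and -0.20 with counts summed over wells). *Synpo* encodes synaptopodin, which binds actin in podocytes and in muscle. Of the endothelium list only *Ehd3* entered (0.96), and 0 of the collecting duct and the leukocyte genes did. A further list, 16 genes that the study connected with *Akr1b7* in cells of a separate Chromium experiment, had 10 members that entered, 7 above 0 and 5 higher, namely *Rgs5*, *Acta2*, *Tagln*, *Cavin3* and *Synpo*, with a median of 2.31 and of 0.55 over the smaller set. *Cavin3*, a protein of caveolae, had medians of 19.5 and 0 CPM (3.46) and kept a difference of 3.10.

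The same division was set beside the WT cells, whose counts lie in a separate table, so that levels are not compared across the genotypes beyond presence. Of 15 WT wells that met the limits, 12 were rich, at 1119 to 18696 CPM of *Akr1b7*, and 3 were poor, at 13.2, 44.5 and 66 CPM. Poor wells were 20.0% of the WT wells (4.33% to 48.1%). *Ren1* had a median of 100196 CPM (1247 to 339358 CPM) in the rich and 2320 CPM (740 to 6104 CPM) in the poor WT wells. In WT, then, the 3 poor wells also had less *Ren1* than the median rich well, although the ranges overlapped.

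The difference was above 0 for 37.8% of the 4142 genes in WT, with a median of -0.62. *Ren1* was part of the WT totals, at medians of 100196 CPM in the rich and 2320 CPM in the poor wells. By construction this lowers the CPM of all other genes more in the rich WT wells. Its share in the WT differences was not tested. Of the 10 genes named for positive differences in Renin-null wells 5 were above 0 in WT, and of the 10 named for negative ones 7 were above 0. The smooth muscle list had a WT median of -1.49, with 2 of 17 above 0, and the matrix list -0.96. All 3 poor WT wells carried *Acta2*, at 4672 CPM or more, and *Rgs5*, at 10016 CPM or more. *Sncg* stood at 869 and 622 CPM in rich and poor WT wells (0.05). *Mgp* was higher in the rich WT wells, at medians of 349 and 2.48 CPM (3.03), and *Serpine2* at 1807 and 10.8 CPM (4.11). With 3 poor wells none of this was tested.

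**Figure D5:**
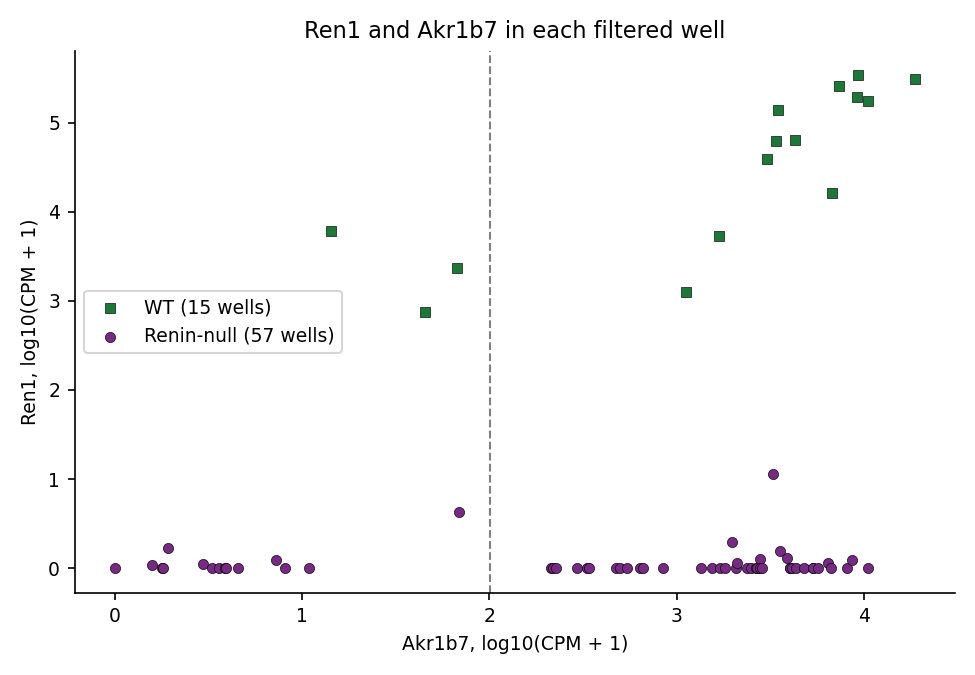
*Ren1* against *Akr1b7*, both as log10(CPM + 1), in the 15 WT wells (squares) and 57 Renin-null wells (circles) used; the dashed line is the limit of 100 CPM of *Akr1b7*. The Renin-null wells lie at 10.4 CPM of *Ren1* or less at every level of *Akr1b7*, and the WT wells lie at 740 CPM or more.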

How the data were processed

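The authors' processing checked reads with FastQC (0.11.5), trimmed them with Trimmomatic (0.39) and quantified them with Salmon (0.11.2) against GRCm38.p6, per the labels. Per the study's methods, transcript estimates were brought to genes with tximport as length-scaled values, so the deposited values are estimated counts per gene and well, 1 table per genotype. They were rounded here. SMART-Seq reads carry no molecular identifiers, so a count is not a molecule. CPM left out the 13 mitochondrial genes, and differences are means of log2(CPM + 1).

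The members and the gene lists were chosen with earlier results of these data known. The named genes were *EYFP*, *Ren1*, the Akr1b group, the 10 largest counted differences in each direction that kept their sign in wells thinned to 75000 counts and with near-identical wells counted once, up to 4 genes per list with the largest differences, and the 5 genes most like *Akr1b7*. Predicted genes were counted, not named, and values of some genes that the rule names are not reported here. The cell type make-up of single wells was read from 8 marker lists and the smooth muscle list. Coordinates follow GENCODE M21. Python 3, pandas, scipy and edgeR (TMM factors only) were used, and the code was tested on simulated data.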

Additional observations from a re-analysis of the deposited data

Results flagged for a closer look

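Within the *Akr1b7*-poor wells of each library, *EYFP* and the sums of the cell type lists were searched for a well that stands apart from the others of its library by Dixon's ratio. Of 20 such groups of 5 or 10 wells 5 had one, where wells of a single kind would give about 1 in 20. The poor wells had already been seen to be of different kinds, so these flags describe single wells and decide nothing further. In YFP1 the highest of 10 wells stood apart for *EYFP* (36400 CPM), for the proximal tubule list (49763 CPM), for the collecting duct list (63.4 CPM) and for the macrophage and leukocyte list (42605 CPM). In YFP2 the lowest of 5 wells, at 0 CPM, stood apart for the loop and distal tubule list. That well had 379753 counts, and the others ran from 115 to 783 CPM.

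Data outside the comparison also carried the marker: of the 39 Renin-null wells left out for depth, genes or mitochondrial share, 24 had *Akr1b7* at or above 100 CPM (61.5%, exact Clopper-Pearson interval 44.6% to 76.6%). The median of these 24 was 769 CPM and the highest value 11551 CPM, but 5 of them passed the limit on fewer than 5 counts of *Akr1b7*, at the lowest 2.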

How the results depend on the processing

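The 2 classes were compared without a test and their wells share no replicate numbers, so no paired analysis was made. The libraries, which hold wells of both classes, enter through the rule on sign. The counts of genes depended on the processing. Against 209 higher genes, YFP2 alone gave 578, counts summed over wells 694, the same with TMM factors 655, the ratio of mean CPM 604, a pseudocount of 10 CPM 72, and the wells with smooth muscle transcripts 371. Against 155 lower genes, a limit of 300 CPM gave 99, all 96 wells 24, leaving out wells over 9000 genes 249, YFP1 alone 376, YFP2 alone 386, summed counts with TMM factors 233, a pseudocount of 10 CPM 19, and the wells with smooth muscle transcripts 97. The other alternatives stayed within 1.5 times. The cause of each shift was not tested. By construction, a larger pseudocount brings the log values of any 2 wells closer, and 1 library drops the condition on the other. Of the 209 and the 155, those counted again were 193 and 147 with near-identical wells counted once, 131 and 68 at 300 CPM, 121 and 69 with summed counts, 107 and 7 over all 96 wells, and 72 and 19 with the pseudocount of 10.

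Among the genes counted as higher or lower and reported here, signs turned for *EYFP* with summed counts (-2.55), TMM factors (-2.63) and the ratio of mean CPM (-1.94), for *Synpo* with summed counts (-0.20) and TMM factors (-0.28), for *Gpx3* (0.29) over all 96 wells, and, over the wells with smooth muscle transcripts, for *Ezr* (0.34), *Crip1* (-0.37), *Akr1a1* (0.40), *Tagln* (-0.27), *Herpud1* (0.10), *Igfbp5* (-0.013), *Myh11* (-1.16) and *Myl9* (-1.35). Reported genes outside the rule for named genes, such as the last pair, were recomputed over these wells and within each library only. Of 323 list medians under the alternatives 303 kept their sign, and of 1344 differences of named genes 1308 did. Of the others 23 belong to 14 genes counted in neither direction, among them *Heyl* with summed counts (-1.94), TMM factors (-2.02) and the ratio of mean CPM (-1.17), *Akr1b3* in YFP1 alone (1.16) and *Tyms* in YFP2 alone (1.71). Sizes held less well than signs: 390 of the 1344 differences and 73 of the 323 medians were classed as moved. With counts summed over wells *Rgs5* fell to 2.07. Counted genes under 2 log2 units in size there, besides those given with their results, included *Crip1* (1.38), *Prkar1a* (0.99), *Itgb1* (1.55) and *Jag1* (1.37). So did *Serpine2* (1.21), *Col1a2* (0.68), *Akr1a1* (-1.62) and *Herpud1* (-1.58). The wells are 1 sample from unnamed mice, so their spread is not that between animals, and the limit of 100 CPM was chosen on these wells.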
